A study of Danio rerio with 4 samples.

Results

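The 4 genes described here are npas4l and etv2, tal1 and lmo2, genes of the early blood and vessel programme that act downstream of it. They were found by symbol among the 20390 genes of the deposited table. There the gene under the clone name CABZ01080135.1, with the Ensembl identifier ENSDARG00000116511, was taken as npas4l. RNA came from whole zebrafish embryos with the transgene Tg(hsp70l:loxP-STOP-loxP-npas4l), allele bns298, in which npas4l is followed by GGGGGLSRS and P2A-mCherry. The embryos were kept at 28 °C, given a heat shock of 1 h at 37 °C and sampled when they had 6 somites. The promoter of the heat-inducible chaperone gene hsp70l lies in front of a loxP-flanked stop, which the recombinase Cre can remove so that npas4l and the mCherry reporter are read. Both groups carry the transgene and both were heat-shocked: 2 libraries are from embryos that received Cre by injection as zygotes and 2 from uninjected embryos. Injected embryos without the transgene are not among the samples, so effects of injection, of Cre and of npas4l cannot be told apart, nor can effects of clutch or of small differences in stage. The promoter is not tissue-restricted, and the labels do not say what share of cells recombined or how many embryos went into a library.

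Npas4l, known from the zebrafish cloche mutant, is a transcription factor of the bHLH-PAS family, whose members bind DNA as pairs with a partner such as Arnt. It is needed very early in the lateral mesoderm for cells to become endothelium or blood. Downstream of it, Etv2 is an ETS-family factor that starts the endothelial programme, Tal1 is a bHLH factor that pairs with E proteins, and Lmo2 is a LIM-only adaptor that does not bind DNA itself but bridges Tal1, its E protein partner and GATA factors together with Ldb1.

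The deposited values are whole numbers that behave as read counts divided by a factor per library close to 1, and are called normalised reads here. They summed to between 8933474 and 9861419 per library. Of 25 marker genes for 9 tissues of the early embryo, none was at 0 in any library, and their values ran from 8 to 104183. The neural crest markers sox10 and foxd3, also planned, were not examined. Over the whole table, 16754 genes with at least 10 normalised reads in at least 2 libraries were tested with limma on log2(value + 1). At a Benjamini-Hochberg adjusted p under 0.05, 1064 genes (6.35%) passed upward and 1037 (6.19%) downward with Cre. These counts rested on few libraries: they were 279 and 218 without uninjected replicate 1, 228 and 210 without uninjected replicate 2, 2064 and 1871 when Cre-injected replicate 1 was left out, and 1519 and 1738 for replicate 2. With 1 library left in a group, the spread comes from the other group alone.

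Transcripts of npas4l, etv2 and lmo2 rose in Cre-injected embryos, and tal1 missed the threshold with values that were nevertheless higher in both Cre-injected libraries. Thus 3 of 4 genes passed the test upward, where 6.35% of all tested genes did. Among the 3 is npas4l, which the transgene itself encodes, so its value may hold reads of the transgene. For all 4 genes both Cre-injected values lay above both uninjected ones, a pattern that 28% of tested genes shared, with 28.8% showing the reverse. The genes had been chosen with earlier results of these data known. In RNA from whole embryos, more cells of a type and more RNA per cell cannot be told apart.

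**Figure D1:**
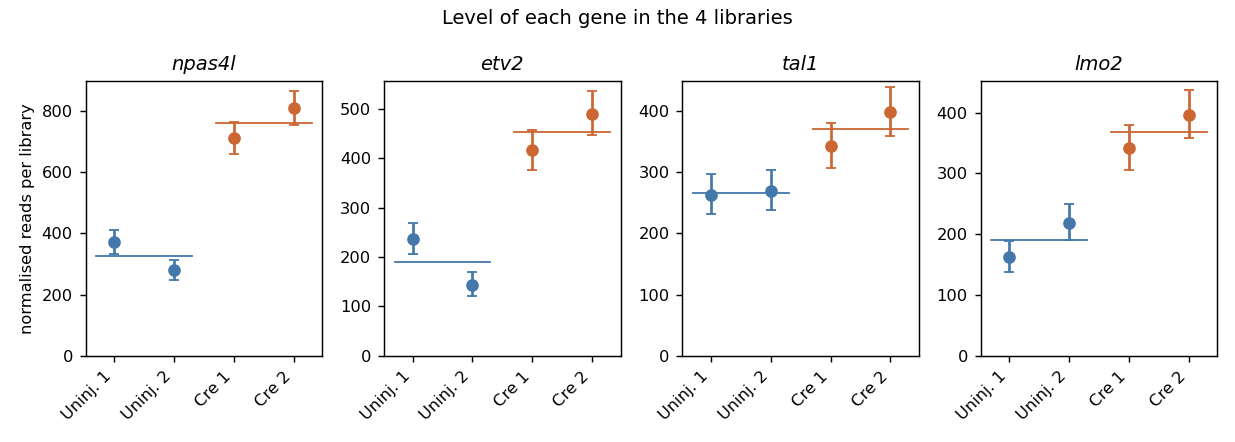
Normalised reads of npas4l, etv2, tal1 and lmo2 in each library (y axis from 0, scaled per gene), with uninjected libraries in blue and Cre-injected ones in orange; bars are 95% exact Poisson intervals for counting error only and horizontal lines are group means. The Cre-injected points stand above the uninjected ones in all 4 panels, with the smallest gap for tal1.

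The gene npas4l (chromosome 13, 52006253 to 52017013, plus strand, GRCz11, protein-coding) had 370 and 279 normalised reads in uninjected replicates 1 and 2, against 710 and 808 in the Cre-injected replicates. The lower Cre-injected value was 1.92 times the higher uninjected one, and the groups did not overlap. The fold change was 2.35 (95% confidence interval 1.86 to 2.98; log2 fold change 1.23 ± 0.16 (SE); limma adjusted p = 0.00051), and 2.41% of tested genes had a larger one. Per 1000000 normalised reads of the library, the level went from 40.7 and 29.4 to 79.5 and 81.9. As a ratio, the gap between the Cre-injected libraries narrowed and that between the uninjected ones widened slightly. The gap between groups remained. The values do not tell the endogenous gene from the copy in the transgene, and mCherry was not analysed here. The uninjected libraries, in which the stop is in place, already held at least 279 of these reads. The call was kept whichever library was left out, with log2 fold changes from 1.03 without uninjected replicate 2 to 1.44 without uninjected replicate 1.

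Of 4 heat-inducible hsp70 genes, 3 rose in Cre-injected embryos, where 6.35% of all tested genes did. The endogenous hsp70l gene, whose promoter drives the transgene, had 33 and 26 normalised reads, then 66 and 280 with Cre (log2 fold change 2.18 ± 0.58 (SE), limma adjusted p = 0.0494). The ratio of Cre-injected replicate 2 to replicate 1 was 1.138 for npas4l and 4.24 for hsp70l. It was 5.08 for hsp70.1, 8.68 for hsp70.2 and 1.82 for hsp70.3. The relatives of hsp70l, hsp70.1 (5 and 8, then 26 and 132; adjusted p = 0.0096) and hsp70.3 (235 and 155, then 599 and 1090; adjusted p = 0.00219), rose as well. The values of hsp70.2 were 19 and 14, then 37 and 321 (adjusted p = 0.17). The constitutive chaperone gene hspa8 had 86652 and 89298, then 65746 and 72409 (adjusted p = 0.0613). In these genes both Cre-injected values lay above both uninjected ones, except in hspa8, where they lay below. Of all tested genes 28% showed the first pattern and 28.8% the second. The hsp70 genes are close copies, so reads may be split between them. Only through its Cre-injected values, the group where it is high, did hsp70.1 pass the filter. The call of hsp70l ended without uninjected replicate 1 (log2 fold change 2.35) or 2 (2.01), with a pseudocount of 5 (adjusted p = 0.0699), with no filter (adjusted p = 0.135) and with at least 10 reads required in all 4 libraries (adjusted p = 0.0586). The log2 fold change of hsp70l was 3.21 without Cre-injected replicate 1 and 1.145 without replicate 2. That of hsp70.1 was 4.18 and 1.88 in the same fits, the second no longer a call, and its call also ended without uninjected replicate 1 (2.74). For hsp70.2 a call was gained without Cre-injected replicate 1 (4.22), and hspa8 gained one, as lower, without either Cre-injected library (-0.28 without replicate 1, -0.42 without replicate 2) and under other scalings (adjusted p = 0.0379 at equal totals, 0.0328 at equal upper quartiles) or no filter (0.0285). The part that an unequal heat response plays in the npas4l values was not tested.

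**Figure D2:**
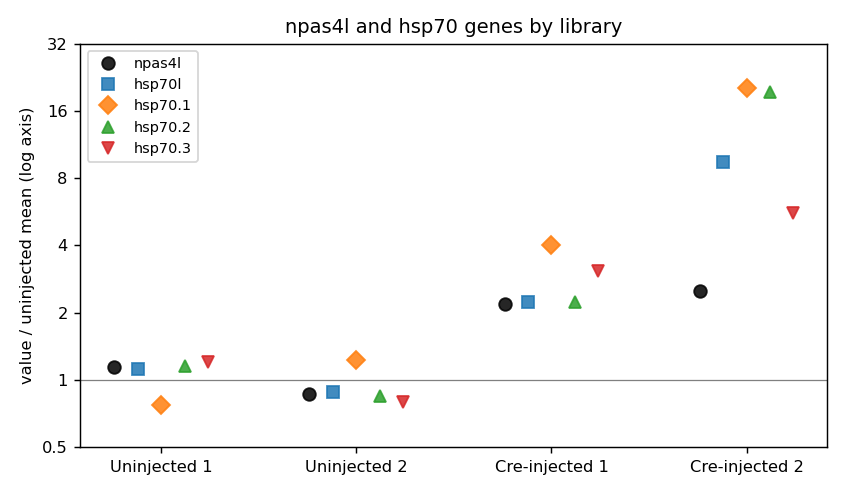
Values of npas4l (black circles) and of the heat-inducible genes hsp70l, hsp70.1, hsp70.2 and hsp70.3 in each library, divided by the gene's own uninjected mean, on a log axis. In Cre-injected replicate 2 the hsp70 genes stand above npas4l. The 2 Cre-injected values lie closest together for npas4l and next closest for hsp70.3.

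For etv2, also called etsrp (chromosome 16, 42007090 to 42014272, minus strand, protein-coding), there were 236 and 144 normalised reads without Cre and 416 and 490 with it. Both Cre-injected values exceeded both uninjected ones, the nearest pair by a ratio of 1.76. The fold change of 2.44 (95% confidence interval 1.78 to 3.36; log2 fold change 1.29 ± 0.21 (SE); limma adjusted p = 0.00238) was exceeded by 2.19% of tested genes. The uninjected libraries stood further apart from each other for etv2 than for the other 3 genes, by a ratio of 1.64. Their 95% counting intervals, 206.8 to 268.1 and 121.4 to 169.5, did not overlap. Those of npas4l (333.3 to 409.7 and 247.2 to 313.7) and lmo2 (138.0 to 189.0 and 191.0 to 250.0) did not overlap either, while those of tal1 did. For etv2 the size of the change therefore depends on which uninjected library is used. Its log2 fold change was 1.64 without uninjected replicate 1 and 0.93 without uninjected replicate 2. The call was kept in both fits, the second at adjusted p = 0.0447.

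The adaptor gene lmo2 (chromosome 18, 38288877 to 38296665, plus strand, protein-coding) had 162 and 219 normalised reads without and 341 and 396 with Cre. Its groups did not overlap, and the nearest values differed by a ratio of 1.56. The fold change was 1.95 (95% confidence interval 1.48 to 2.55; log2 fold change 0.96 ± 0.18 (SE); limma adjusted p = 0.00498), exceeded by 4.21% of tested genes. Among the uninjected libraries lmo2 was higher in replicate 2, whereas npas4l and etv2 were higher in replicate 1. Its call ended without uninjected replicate 1 (log2 fold change 0.74, adjusted p = 0.103) and was kept in the 3 other fits that left out a library, with log2 fold changes of 0.85 to 1.18.

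The bHLH factor gene tal1, also called scl (chromosome 22, 16535575 to 16545330, plus strand, protein-coding), had 263 and 269 normalised reads, then 342 and 397 with Cre. The uninjected values were nearly equal, and the lower Cre-injected value was 1.27 times the higher uninjected one. The fold change of 1.38 had a 95% confidence interval of 1.105 to 1.73 and the log2 fold change was 0.47 ± 0.15 (SE). With an unadjusted p of 0.00846 it missed the threshold after adjustment over all tested genes (limma adjusted p = 0.0603), and 14.6% of tested genes had a larger fold change. The call was gained without Cre-injected replicate 1 (log2 fold change 0.58, adjusted p = 0.00594). Without Cre-injected replicate 2 the log2 fold change was 0.36 (adjusted p = 0.117). Under the 8 other settings with all libraries its adjusted p lay between 0.0573 and 0.0872.

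**Figure D3:**
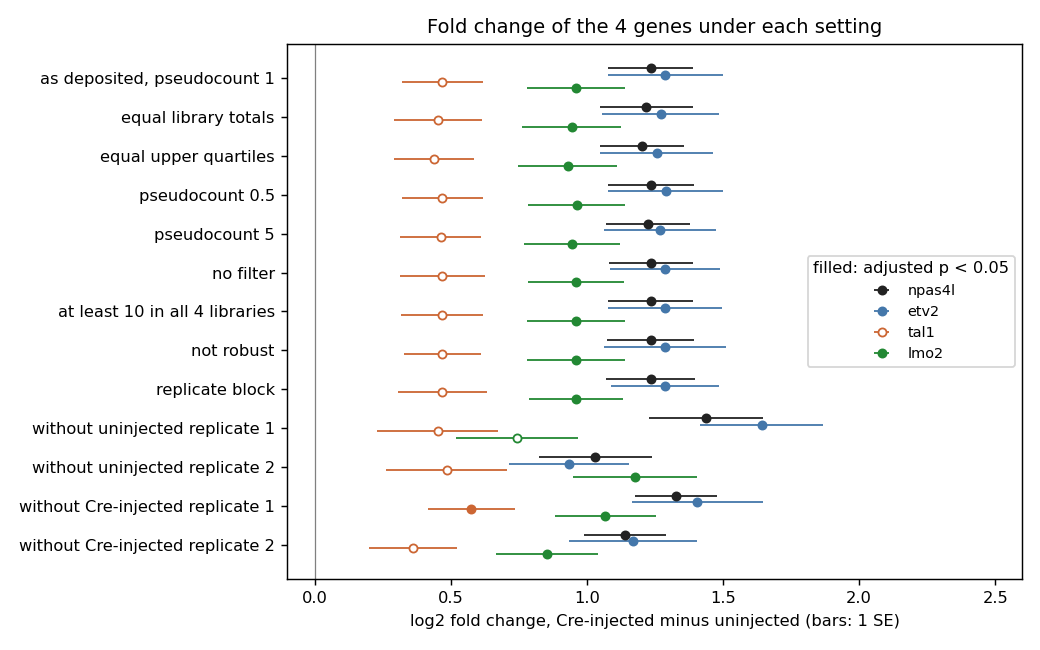
Log2 fold change of the 4 genes (x axis, bars 1 SE) under the deposited scaling and each alternative (y axis); filled points passed an adjusted p of 0.05. Npas4l and etv2 are filled throughout, lmo2 is open without uninjected replicate 1, and tal1 is filled without Cre-injected replicate 1 and open elsewhere.

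The genes were next compared with each other within each library, which removes the library's scale. Gene lengths are not accounted for, so a ratio itself says nothing of which transcript was more abundant, and its change between groups is what is read. The ratio of npas4l to etv2 was 1.57 and 1.94 without Cre, then 1.71 and 1.65 with it, and the groups overlapped. The ratio of npas4l to tal1 was 1.41 and 1.04 without and 2.08 and 2.04 with Cre, higher in both Cre-injected libraries. That of etv2 to tal1 went from 0.897 and 0.535 to 1.22 and 1.23, again without overlap. The ratio of tal1 to lmo2 was 1.62 and 1.23 in uninjected libraries and 1.003 and 1.003 in the Cre-injected ones, so tal1 and lmo2 had almost identical values there. The ratios of npas4l to lmo2 (2.28 and 1.27, then 2.08 and 2.04) and of etv2 to lmo2 (1.46 and 0.658, then 1.22 and 1.24) overlapped between groups. On the log2 scale the fold change of tal1 was smaller than that of npas4l by 0.77, than that of etv2 by 0.82 and than that of lmo2 by 0.49. Each of these 3 differences had an exact two-sided permutation p of 0.333, the smallest that 2 libraries against 2 allow, and 0.667 after adjustment over the 6 pairs. The 3 other pairs had an exact permutation p of 1. A lesser rise of tal1 is thus not shown by a test. Leaving out 1 library turned the sign of the difference for npas4l and etv2 (from -0.20 to 0.10 around -0.05), for npas4l and lmo2 (from -0.15 to 0.69 around 0.27) and for etv2 and lmo2 (from -0.24 to 0.90 around 0.33).

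**Figure D4:**
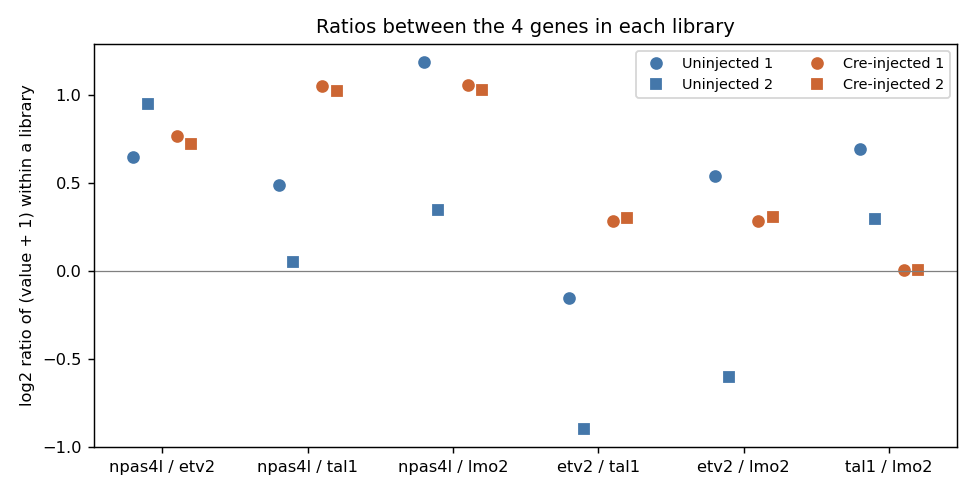
Log2 ratio between 2 of the 4 genes within each library (value + 1), with uninjected libraries in blue, Cre-injected ones in orange, circles for replicate 1 and squares for replicate 2. The Cre-injected libraries lie almost on top of each other for each pair, while the uninjected ones are spread.

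No other listed gene overlaps any of the 4, and the nearest listed gene on each side was examined to see what its locus did. Beside etv2, the ETS factor gene fli1b starts 3768 bp beyond it on the opposite strand. It had 46 and 44 normalised reads, then 43 and 69 with Cre, which overlap (log2 fold change 0.27, limma adjusted p = 0.607). On the other side of etv2, pycard, which encodes the inflammasome adaptor, fell from 87 and 85 to 44 and 42 (log2 fold change -0.98, adjusted p = 0.0261). Next to lmo2, caprin1b, for an RNA-binding protein, fell from 3898 and 3755 to 2559 and 2719 (log2 fold change -0.54, adjusted p = 0.00639), while si:ch211-215d8.2, 453 kb away on the far side, had 45 and 22, then 19 and 25 (adjusted p = 0.463). The neighbours of tal1 were ier5 with 489 and 417, then 408 and 641 (adjusted p = 0.577) and pdzk1ip1 with 18 and 12, then 13 and 6 (adjusted p = 0.487). Those of npas4l were klhdc3 with 44 and 32, then 33 and 59 (adjusted p = 0.715) and the clone-named gene CABZ01089777.1 with 11 and 12, then 4 and 1 (adjusted p = 0.129). By limma 0 of the 8 neighbours rose, either adjusted or at an unadjusted p under 0.05, and 2 fell after adjustment. At the unadjusted threshold pycard, caprin1b and CABZ01089777.1 were lower. On few reads, CABZ01089777.1 passed the filter only through its uninjected values, the group where it is high. Of all tested genes 6.35% rose and 6.19% fell after adjustment, and 14.1% were higher and 14.3% lower at the unadjusted threshold. The calls of pycard and caprin1b ended without uninjected replicate 1 (-0.97 and -0.51) or 2 (-1.0004 and -0.56). For ier5 a call as higher was gained without Cre-injected replicate 1 (0.50). Leaving out Cre-injected replicate 2 turned the sign for ier5 (-0.15), fli1b (-0.06) and klhdc3 (-0.18).

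Partners and relatives of these factors were examined next. Of 6 tested bHLH-PAS genes, none rose by limma at either the adjusted or the unadjusted threshold. After adjustment 1 fell, and at the unadjusted threshold 2 were lower, arntl1b and sim1a. Of all tested genes 6.35% rose and 6.19% fell after adjustment, and 14.1% were higher and 14.3% lower at the unadjusted threshold. The gene that fell after adjustment was arntl1b, a Bmal1 gene of the circadian clock. It had 186 and 212 normalised reads without and 118 and 89 with Cre (log2 fold change -0.95 ± 0.20 (SE), limma adjusted p = 0.0106). The general partner gene arnt had 406 and 405, then 403 and 448 (log2 fold change 0.07, adjusted p = 0.786), and arnt2 had 555 and 547, then 702 and 627 (0.27, adjusted p = 0.189). The values of arntl2 were 617 and 665, then 794 and 746 (0.26, adjusted p = 0.179), and those of sim1a, a neural factor gene of the same family, 222 and 243, then 191 and 161 (-0.40, adjusted p = 0.147). The call of arntl1b ended without uninjected replicate 1 (-1.04) or 2 (-0.85), sim1a gained one without Cre-injected replicate 1 (-0.53), and arnt2 gained one without Cre-injected replicate 2 (0.35). Without Cre-injected replicate 2 the sign of arnt turned (-0.01).

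Among 23 tested genes for partners, paralogs and inhibitors of Tal1 and Lmo2, none passed limma's test in either direction after adjustment, beside 6.35% of all tested genes higher and 6.19% lower. At an unadjusted p under 0.05, 2 were higher and 5 lower, beside 14.1% and 14.3% of all tested genes. The E protein genes tcf3a, tcf3b and tcf12, whose products pair with Tal1, stood at log2 fold changes of 0.36 (adjusted p = 0.0799), 0.07 (0.726) and -0.14 (0.421). The bridging cofactor gene ldb1a had 1567 and 1621 normalised reads, then 1371 and 1150 with Cre, without overlap (-0.34, adjusted p = 0.0816), and ldb1b had 717 and 640, then 503 and 671 (-0.22, adjusted p = 0.371). Of the GATA factor genes, gata2a had 650 and 620, then 627 and 627 (-0.02, adjusted p = 0.942), and the red-cell factor gene gata1a had 68 and 52, then 28 and 36 (-0.88, adjusted p = 0.0846). For id1, whose product holds E proteins away from their partners, the values were 595 and 649, then 515 and 402 (-0.45, adjusted p = 0.0671). The list's median log2 fold change was -0.22, against 0.00 over all tested genes, with 18 of 23 genes below 0. Without Cre-injected replicate 1, 1 gene was higher and 4 were lower, among them tcf3a (0.29), ldb1a (-0.47) and id1 (-0.63). Without Cre-injected replicate 2, 2 were higher and 3 lower, among them tcf3a (0.44), ldb1b (-0.43) and gata1a (-1.06). The near-zero values of tcf3b and gata2a changed sign without Cre-injected replicate 1 (-0.01) and without uninjected replicate 1 (0.02).

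Of 25 other tested regulators of early blood and vessels, 2 were higher, 8 lower and 15 neither, where 6.35% and 6.19% of all tested genes were higher and lower. The median log2 fold change of the list was -0.19, against 0.00 over all tested genes. The SoxF gene sox7, an endothelial regulator, rose from 117 and 90 to 238 and 373 normalised reads (log2 fold change 1.53 ± 0.23 (SE), limma adjusted p = 0.00135), and the ETS gene ets2 rose from 33 and 41 to 59 and 102 (1.06, adjusted p = 0.0489). The other ETS gene called, ets1, listed as CABZ01069595.1, fell from 75 and 87 to 44 and 19 (-1.45, adjusted p = 0.025). Among the genes called lower were spi1b, a myeloid factor gene, which fell from 55 and 108 to 33 and 19 (-1.58, adjusted p = 0.0193), and the blood stem cell factor genes runx1, which fell from 34 and 35 to 16 and 8 (-1.52, adjusted p = 0.0452), and myb, which fell from 258 and 257 to 132 and 150 (-0.87, adjusted p = 0.00651). Also lower were yrk, for a Src-family kinase (-0.94, adjusted p = 0.0132), the venous factor gene nr2f2 (-0.98, adjusted p = 0.00282), the Notch feedback gene nrarpb (-0.73, adjusted p = 0.00891) and the cardiac and vascular factor gene mef2cb (-0.62, adjusted p = 0.0422). The RNA is from whole embryos, so the values do not say in which tissue a listed gene fell or rose. The ETS gene fli1a had 199 and 172, then 172 and 152 (-0.19, adjusted p = 0.518). Without uninjected replicate 1, 1 gene was higher and 2 were lower, with calls lost for ets1 (-1.55), ets2 (0.90), runx1 (-1.54), myb (-0.86), yrk (-0.88), nrarpb (-0.75) and mef2cb (-0.55). Without uninjected replicate 2, 1 was higher and 0 lower, sox7 being the gene left, and spi1b was then at -1.10, nr2f2 at -0.89, ets1 at -1.34, ets2 at 1.21, runx1 at -1.50, myb at -0.87, yrk at -0.99, nrarpb at -0.71 and mef2cb at -0.68. Without Cre-injected replicate 2 the calls of ets2 (0.67), runx1 (-1.06) and mef2cb (-0.51) ended. Shrinkage that was not robust ended those of ets1, ets2, runx1 and mef2cb (adjusted p = 0.0503, 0.0742, 0.0631 and 0.0552), equal upper quartiles that of ets2 (0.0561) and equal totals that of mef2cb (0.0566).

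Of 28 tested genes of the endothelial machinery that Etv2 is known to activate or that mark endothelium, 2 rose, 1 fell and 25 did neither, against 6.35% and 6.19% of all genes. The multimerin gene mmrn2b, for an extracellular matrix protein, rose from 66 and 140 to 512 and 591 normalised reads (log2 fold change 2.50 ± 0.29 (SE), limma adjusted p = 0.00067). The VEGF receptor gene kdr rose from 571 and 632 to 1086 and 783 (0.62 ± 0.15 (SE), adjusted p = 0.0225). Transcripts of mrc1a, for a mannose receptor, fell from 11 and 26 to 1 and 0, on few reads (adjusted p = 0.0215). This gene passed the filter only through its uninjected values, the group where it is high. The second VEGF receptor gene kdrl had 205 and 194, then 169 and 184 (-0.18, adjusted p = 0.532), the VE-cadherin gene cdh5 had 118 and 144, then 70 and 106 (-0.59, adjusted p = 0.134), and the sphingosine-1-phosphate receptor gene s1pr1 had 86 and 105, then 51 and 58 (-0.79, adjusted p = 0.0549). For the list as a whole the median log2 fold change was -0.30, against 0.00 over all tested genes, with 19 of 28 genes below 0. At an unadjusted limma p under 0.05, 4 were higher and 6 lower, beside 14.1% and 14.3% of all tested genes. The call of kdr ended without uninjected replicate 1 (0.54) or 2 (0.69), that of mrc1a ended in the same fits (-4.25 and -3.08), and that of mmrn2b ended without Cre-injected replicate 1 (2.61) or 2 (2.40). Genes called lower numbered 0 without uninjected replicate 1 or 2, 5 when Cre-injected replicate 1 was left out and 3 when replicate 2 was, and higher ones numbered 1 in each of these fits. Both cdh5 (-0.89) and s1pr1 (-0.88) were called lower without Cre-injected replicate 2, and s1pr1 also with the replicate block (adjusted p = 0.0469) and at equal upper quartiles (0.0493), while mrc1a was not tested where all 4 libraries had to reach 10.

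In the red-cell list, on the branch that Tal1, Lmo2 and Gata1 serve, 6 of 19 tested genes fell, 1 rose and 12 did neither, beside 6.19% of all tested genes lower and 6.35% higher. Of the globin genes, hbae3 fell from 68 and 72 to 14 and 4 normalised reads (limma adjusted p = 0.00239) and hbbe3 from 60 and 68 to 8 and 10 (adjusted p = 0.00094), and the spectrin gene sptb from 48 and 51 to 2 and 9 (adjusted p = 0.0042). The haem synthesis gene cpox (-0.66, adjusted p = 0.0192), the transferrin receptor gene tfr1a (-1.12, adjusted p = 0.0377) and tmod4, for an actin-capping tropomodulin that muscle also expresses (-0.9997, adjusted p = 0.00519), fell too. The carbonic anhydrase gene cahz rose from 356 and 326 to 541 and 488 (0.59, adjusted p = 0.0162). The red-cell factor gene klf17 had 392 and 394, then 372 and 395 (-0.04, adjusted p = 0.892), and the haem synthesis gene alas2 had 24 and 18, then 12 and 10 (adjusted p = 0.255). With either uninjected library left out, 2 genes were lower and 0 higher. Calls then lost were those of sptb (-3.25 without replicate 1, -3.16 without replicate 2), cpox (-0.55 and -0.76), tfr1a (-1.004 and -1.23), tmod4 (-0.98 and -1.02) and cahz (0.65 and 0.53). Without Cre-injected replicate 1, 2 genes were higher. Fold changes that moved by over 1.5 times were those of hbae3 (-3.83 without Cre-injected replicate 1, -2.24 without 2) and sptb (-2.34 and -4.07), and klf17 changed sign without Cre-injected replicate 1 (0.01). With at least 10 reads required in all 4 libraries, 3 genes were lower, since hbae3, hbbe3 and sptb were then not tested. Under the main filter sptb was tested only through its uninjected values, the group where it is high.

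**Figure D5:**
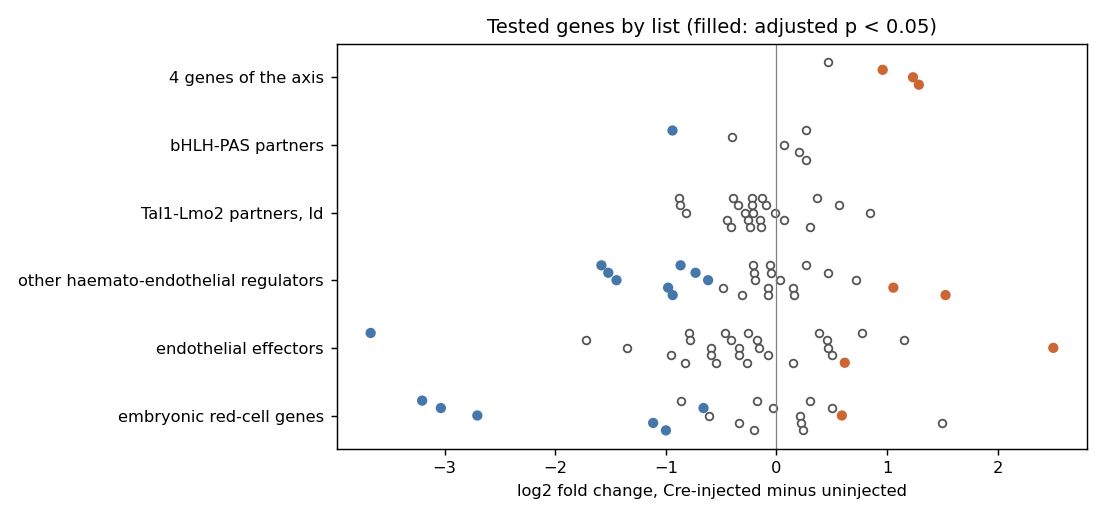
Log2 fold change, Cre-injected minus uninjected, of each tested gene (x axis) in the 4-gene axis and 5 gene lists (y axis); orange and blue points passed an adjusted p of 0.05 upward or downward and open points did not. The 4 genes lie between 0.47 and 1.29, while the lists spread on both sides of 0.

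Finally, the genes whose profile over the 4 libraries was closest to that of each gene were listed. Likeness was the Euclidean distance between log2 profiles centred on the gene's own mean, among 10151 named genes (10150 for a gene that is itself among them) with a mean of at least 50. Over 4 libraries this describes the shape of the values and nothing more. Closest to npas4l were wnt11, for a Wnt ligand of cell movement (73 and 49, then 122 and 145; distance 0.154), ranbp3a (210 and 167, then 373 and 420; 0.168) and lcp1, for the actin-bundling protein of white blood cells (179 and 128, then 293 and 351; 0.173). The distance between npas4l and etv2 was 0.223, the smallest among the 6 pairs of the 4 genes. Closest to etv2 were mical3b (distance 0.134), wnt11 (0.179) and atf5a (0.197), so wnt11 stood among the nearest for both. For lmo2 they were psmc3ip (0.0674), grip2a (0.0875) and tyk2 (0.131), with at most 107 normalised reads in any library for tyk2, 106 for psmc3ip and 80 for grip2a. For tal1 they were amotl2b, for an angiomotin-family protein of cell junctions (778 and 776, then 1006 and 1171; distance 0.0288), ubtd1b (0.0351) and the lactate transporter gene slc16a1b (732 and 725, then 945 and 1098; 0.0357). The log2 fold changes of amotl2b and slc16a1b, 0.48 each, were about that of tal1, which follows from choosing genes by likeness. Their limma adjusted p-values were 0.0234 and 0.024, against 0.0603 for tal1. For ubtd1b, with 201 and 208, then 262 and 297, it was 0.0876. At such close fold changes these p-values differ through the SE. It was 0.12 for amotl2b and for slc16a1b, 0.15 for tal1 and 0.16 for ubtd1b. In this fit the SE draws on a trend over level, and amotl2b and slc16a1b had the most reads of these genes. How much of the difference comes from level was not tested. The calls of amotl2b (0.48 and 0.48) and slc16a1b (0.49 and 0.48) ended without uninjected replicate 1 or 2. A call of ubtd1b was gained without Cre-injected replicate 1 (0.54).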

How the data were processed

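Per the labels' protocols, stranded libraries were made from 10 ng of total RNA of whole zebrafish embryos and read from 1 end over 75 bases. Per the submitters' processing notes, which give no roles, the tools were DESeq2 1.14.1, featureCounts 1.6.0, STAR 2.6.0c, Trimmomatic 0.36 and FastQC 0.11.8, with GRCz11 (danRer11) as the build. The deposited values are a score for each gene: whole numbers, read here from their pattern (regularly skipped or overfilled values) as counts to which the authors applied a size factor before rounding. Strand setting and multi-mapping rule are not given in the sources used here. Groups come from the sample titles, which head the columns. Whether replicates are separate clutches is not stated, so the spread between these 4 samples may be technical. The SEs and p-values of limma are moderated. They combine a gene's own spread with a spread taken from all tested genes by level, so they do not measure the gene's own spread alone.

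Genes with at least 10 in at least 2 libraries were tested on log2(value + 1) by limma 3.58.1 in R 4.3.3 (two-sided, mean-variance trend, robust shrinkage), adjusted over all tested genes, and the fit was tested on simulated data. Fold changes on this scale understate those of low genes. The normalised values allow no count model. Counting intervals treat the values as counts and cover counting error only. The genes and the 5 lists were chosen with earlier results of these data known. Besides the 4 genes, the text names the list genes past the threshold and the 4 smallest p per list, 5 heat-shock genes, the nearest listed neighbours and the 3 genes most alike. Named after their values were seen were tcf3b, tcf12, ldb1b, gata2a, fli1a, kdrl, cdh5, arnt, klf17 and alas2. List names were matched by symbol, or by Ensembl identifier with a name table. Alternatives were other scalings, pseudocounts, filters and shrinkage, leaving out each library, and a replicate block. Figures were drawn with matplotlib 3.10.9.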

Additional observations from a re-analysis of the deposited data

How the results depend on the processing

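With all 4 libraries, the 8 alternatives moved no call of npas4l (log2 fold change 1.203 to 1.24), etv2 (1.26 to 1.29), lmo2 (0.93 to 0.96) or tal1 (0.44 to 0.47, not called). Leaving out 1 library gave 1.03 to 1.44 for npas4l, 0.93 to 1.64 for etv2, 0.74 to 1.18 for lmo2 and 0.36 to 0.58 for tal1. The same refits gave 228 to 2064 genes higher and 210 to 1871 lower. In the lists they gave higher and lower counts of 0 to 1 and 0 to 2 (bHLH-PAS), 0 to 2 and 0 to 4 (Tal1 and Lmo2 partners), 1 to 2 and 0 to 9 (other regulators), 1 to 1 and 0 to 5 (endothelial) and 0 to 2 and 2 to 6 (red-cell). Other settings that moved a list count by over 1.5 times were equal upper quartiles (regulators higher 1, endothelial lower 2), shrinkage without the robust option (regulators higher 1 and lower 5), the stricter filter (endothelial lower 0, red-cell lower 3) and the replicate block (endothelial lower 2). The cause was not tested, except that the stricter filter tests fewer genes.

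The sign of the log2 fold change differed between fits that left out a library for arnt (-0.0089 to 0.14), fli1b (-0.064 to 0.61), ier5 (-0.15 to 0.50), klhdc3 (-0.18 to 0.64), tcf3b (-0.0085 to 0.14), klf17 (-0.079 to 0.0073) and gata2a (-0.052 to 0.016). Of 748 refits of 63 other named genes, 650 kept side and direction. Of the 6 differences between the 4 genes, 3 changed sign without uninjected replicate 2. Replicate numbers are shared between the groups, but same-numbered libraries did not deviate together (r = -0.0314 across 16754 genes, which are not independent replicates), so the numbers are taken as names. With the replicate block npas4l had adjusted p = 3.65e-05, etv2 0.00023, lmo2 0.000723 and tal1 0.0634, with 1132 genes higher and 1121 lower. With 2 libraries per group, depth limits statements on genes of few reads, such as mrc1a, most.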
